A study of Mus musculus with 21 samples.

Results

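Peaks of Foxa1, Foxa2, Foxa3 and Hnf4a at 3 clusters of hepatocyte genes were taken from 12 lists of chromatin immunoprecipitation sequencing (ChIP-seq) peaks in mouse cells. The clusters are the albumin family genes Alb, Afp and Afm in chr5:90860000-91040000, the fibrinogen genes Fga, Fgb and Fgg in chr3:82770000-82890000, and the apolipoprotein genes Apoa1, Apoc3, Apoa4 and Apoa5 in chr9:46010000-46110000. All positions are on the mouse build mm9. A peak was included when it overlapped 1 of these windows, whatever its score. This gave 51 peaks of 53536 in the 12 lists, with 19 at the albumin window, 21 at the fibrinogen window and 11 at the apolipoprotein window. Peaks of different lists that overlapped by at least 1 bp were joined, which left 24 separate sites. A site is named by the distance of its start from the start of its window, and these distances are not distances to a gene.

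Fibroblasts were prepared from C57BL/6 embryos at 13.5 days post coitum and infected with retroviruses that carry Hnf4a (Hnf4alpha in the labels) together with Foxa1, Foxa2 or Foxa3. All groups used here therefore received Hnf4a and differ in the Foxa gene, and cells that received a given Foxa gene are called its line. Chromatin was taken 48 hours after infection or from iHep cells, which are hepatocyte-like cells derived from such fibroblasts. An antibody to the line's own Foxa protein and an antibody to Hnf4a were used in each line and stage. Each of the 12 combinations is 1 library, so no spread between replicates and no p-value can be given. The sources used here do not say whether embryos were pooled or whether an iHep line is 1 clone, nor which libraries share a culture.

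The libraries are not alike. The 48-hour Hnf4a lists hold 370 to 453 peaks with median widths of 87 to 93.5 bp, while the iHep Hnf4a lists hold 1580 to 2506 peaks with median widths of 205 to 361 bp. The Foxa lists range from 3435 peaks for iHep Foxa1 to 12661 for iHep Foxa3. The title codes of the Foxa2 and Foxa3 lines at 48 hours are the same, and the Foxa and Hnf4a libraries of the iHep Foxa2 line carry different codes. No title code is shared between the stages, so stage and title code cannot be told apart. The titles number the iHep Foxa3 line as 3 and the other lines and stages compared here as 1. The depth of each library is unknown, so a longer list and a deeper library cannot be told apart. Line, Foxa protein and Foxa antibody also cannot be told apart. A list of 1 peak from a tagged Foxa3 mutant named del2 had no peak in the windows.

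Foxa proteins bind DNA through a forkhead domain and can engage their sites in closed chromatin, and the albumin enhancer is a textbook site of such binding in liver precursors. Hnf4a is a nuclear receptor that maintains the expression of many secreted liver proteins, among them fibrinogens and apolipoproteins. Alb encodes the main plasma protein, Afp the fetal serum protein alpha-fetoprotein and Afm the vitamin E carrier afamin. Fga, Fgb and Fgg encode the chains that assemble into fibrinogen, the precursor of the blood clot. Apoa1 is the main protein of high-density lipoprotein, Apoc3 slows the clearance of triglycerides, Apoa4 is a lipid transport protein secreted by liver and gut, and Apoa5 lowers plasma triglycerides. Along the chromosome RefSeq orders them as Alb, Afp, Afm, then Fgg, Fga, Fgb, then Apoa1, Apoc3, Apoa4, Apoa5.

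Promoters of 5 of these genes are shown because they hold a word of the forkhead type in front of genes whose clusters hold Foxa peaks. They are RefSeq sequences of build GRCm38.p6, from 250 bases before to 50 bases after the gene start, printed along the gene's own strand, which is the minus strand for Fgb and the plus strand for the others. Capitals mark matches to the words below. The peaks are on mm9 and no sequence of mm9 was used here, so whether a peak covers one of these promoters was not analysed here.
Alb: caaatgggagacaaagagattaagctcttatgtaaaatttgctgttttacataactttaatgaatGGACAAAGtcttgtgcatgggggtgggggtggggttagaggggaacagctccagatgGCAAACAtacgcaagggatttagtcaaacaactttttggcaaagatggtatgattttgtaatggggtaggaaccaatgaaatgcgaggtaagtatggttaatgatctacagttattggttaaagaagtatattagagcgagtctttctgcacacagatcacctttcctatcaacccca
Afp: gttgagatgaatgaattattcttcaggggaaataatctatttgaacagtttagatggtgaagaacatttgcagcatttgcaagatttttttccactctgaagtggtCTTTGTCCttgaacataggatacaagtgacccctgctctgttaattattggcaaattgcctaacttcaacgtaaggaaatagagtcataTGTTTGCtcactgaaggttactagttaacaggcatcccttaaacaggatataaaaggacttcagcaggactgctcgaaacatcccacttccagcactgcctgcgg
Fgb: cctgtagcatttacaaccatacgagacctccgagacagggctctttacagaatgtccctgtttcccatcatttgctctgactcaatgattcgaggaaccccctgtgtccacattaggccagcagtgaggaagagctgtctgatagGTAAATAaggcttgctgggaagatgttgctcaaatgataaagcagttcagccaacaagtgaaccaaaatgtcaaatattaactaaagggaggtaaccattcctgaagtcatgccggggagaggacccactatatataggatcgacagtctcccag
Apoa1: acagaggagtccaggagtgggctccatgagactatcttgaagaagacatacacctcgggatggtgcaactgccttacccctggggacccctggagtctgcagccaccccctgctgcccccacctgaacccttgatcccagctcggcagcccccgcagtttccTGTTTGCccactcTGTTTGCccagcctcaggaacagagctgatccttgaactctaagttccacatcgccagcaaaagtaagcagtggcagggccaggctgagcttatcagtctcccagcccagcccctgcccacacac
Apoa5: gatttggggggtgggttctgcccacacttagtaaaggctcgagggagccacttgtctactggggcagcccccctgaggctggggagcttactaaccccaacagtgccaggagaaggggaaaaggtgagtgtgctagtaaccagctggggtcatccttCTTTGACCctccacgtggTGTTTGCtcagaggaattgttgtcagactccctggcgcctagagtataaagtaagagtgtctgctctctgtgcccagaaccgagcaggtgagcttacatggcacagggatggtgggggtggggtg

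Promoters were found for 9 of the 10 genes, with 2 overlapping entries for Apoa5, of which the first is printed. Both strands were searched. The Foxa-type words were TGTTTAC, held by 3.65% of 32851 RefSeq promoters, then TGTTTGC, held by 5.07%, then TATTTAC, held by 3.04%, and TATTTGC, held by 2.76%. The Hnf4a-type words were GGNCAAAG, in which N is any base and which 5.62% of promoters hold, and CAAAGTCC, held by 1.42%. These 2 words can overlap in the bases they share. A Foxa-type word was found in 5 of the 9 genes, against 13.5% of all promoters, and an Hnf4a-type word in 4 of 9, against 6.80%. Alb, Afp and Apoa5 held both kinds, as 0.901% of all promoters do. Positions are those of the first base of a match relative to the gene start, with a minus sign before it. In Alb the Hnf4a-type word stands at -185 and the Foxa-type word at -128. In Afp they stand at -144 and -55, and in Apoa5 at -93 and -75. Apoa1 holds 2 copies of a Foxa-type word, at -88 and -75. Afm held an Hnf4a-type word alone, Fgb a Foxa-type word alone, and Fga, Fgg and Apoa4 none. A match is a description of letters and does not show that a protein binds there.

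Of the 51 peaks 44 came from iHep lists and 7 from 48-hour lists. The iHep lists hold 61.6% of all 53536 peaks. Each is longer than the 48-hour list of the same line and antibody, except the iHep Foxa1 list. That list holds 3435 peaks against 6781 at 48 hours, yet had 7 peaks in the windows against 5. All 7 early peaks were Foxa peaks, 5 of Foxa1 and 2 of Foxa2, and they lay in the albumin and fibrinogen windows. No 48-hour Hnf4a peak and no 48-hour Foxa3 peak lay in any of the 3 windows. In iHep cells the windows held 7 Foxa1, 10 Foxa2 and 10 Foxa3 peaks. There were 4 Hnf4a peaks of the Foxa1 line, 6 of the Foxa2 line and 7 of the Foxa3 line. The apolipoprotein window held no peak at 48 hours. For each early Foxa list taken alone that is the usual state of a window of its length. Of all 100 kb windows 19.7% held a 48-hour Foxa1 peak, 19.1% a Foxa2 peak and 14.1% a Foxa3 peak of that stage. The share of windows without a peak of any 48-hour list was not analysed.

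**Figure D1:**
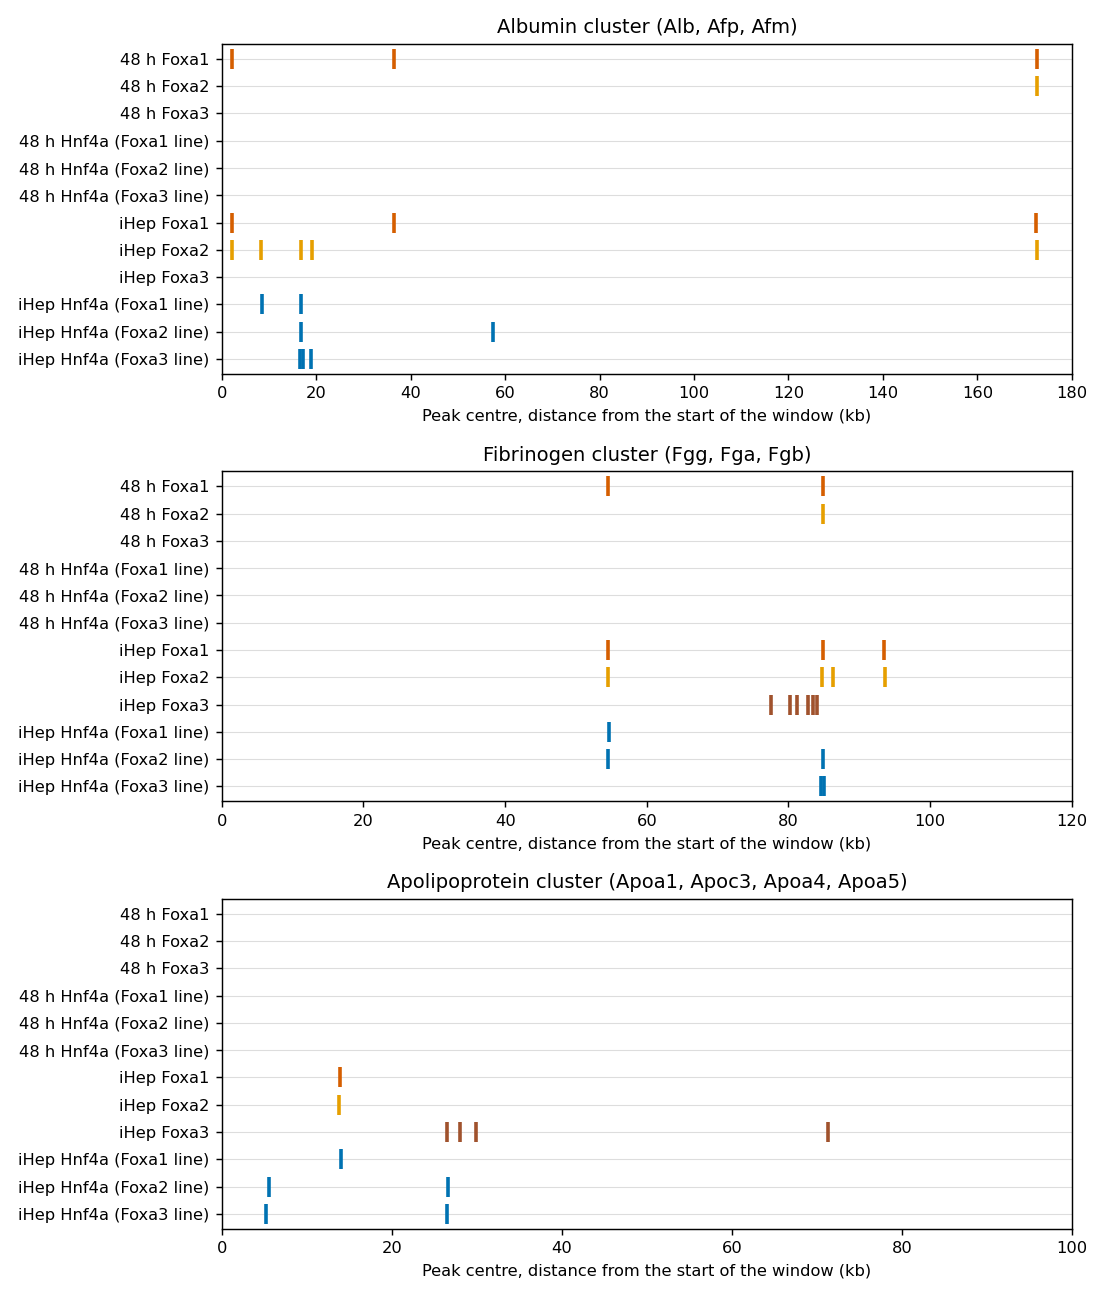
Map of the 51 peaks, with 1 row per list, the distance of the peak centre from the window start on the x axis in kb, and 1 panel per gene cluster. Marks are of fixed size and do not show peak width. The rows of 48-hour Hnf4a and 48-hour Foxa3 are empty in all panels. No iHep Foxa3 peak overlaps one of Foxa1 or Foxa2, and only 2.01% of all iHep Foxa3 peaks overlap iHep Foxa2. At this scale neighbours such as the peaks 314 bp apart in the fibrinogen window cannot be told from overlapping ones.

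For each list the density in the windows was set beside its mean density over the genome. In iHep cells Foxa1 reached 1.75 peaks per 100 kb in the windows against 0.130 over the genome, Foxa2 2.5 against 0.391 and Foxa3 2.5 against 0.480. The Foxa3 peaks were bunched, with 6 inside 6.68 kb of the fibrinogen window and 3 inside 4.02 kb of the apolipoprotein window. Hnf4a of the Foxa1 line reached 1 against 0.0599 in iHep cells, that of the Foxa2 line 1.5 against 0.0942, and that of the Foxa3 line 1.75 against 0.0950. At 48 hours Foxa1 reached 1.25 against 0.257 and Foxa2 0.5 against 0.259. All 8 lists with a peak were denser in these windows than in the genome as a whole. These 8 were picked for having a peak, and for the sparser of them a single peak would already exceed the genome mean. The count of 8 therefore shows little by itself. The other 4 lists were empty here. Windows of 180 kb without a peak are common for them, since 21.5% of all such windows held a 48-hour Foxa3 peak. For 48-hour Hnf4a the same share was 1.58% (line with Foxa1), 1.77% (with Foxa2) and 1.41% (with Foxa3). Their absence from 3 windows is therefore near the usual state of those lists.

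**Figure D2:**
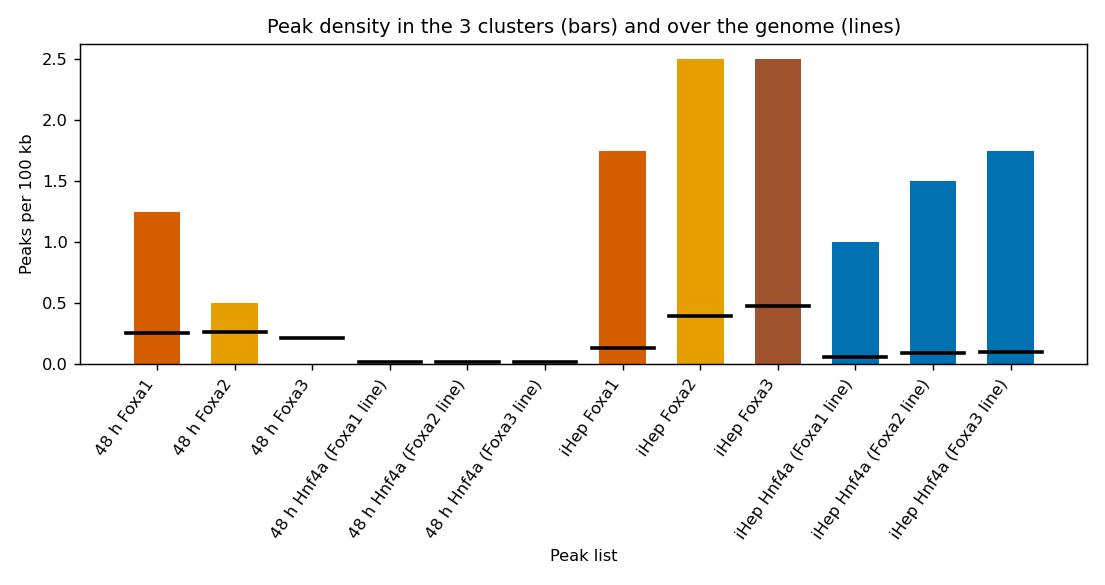
Peaks per 100 kb over all 3 windows (bars) and over the genome (black lines) for the 12 lists. Bars of all 6 iHep lists stand above their genome line, from 1 to 2.5 peaks per 100 kb, while 4 of the 6 lists of 48 hours have no bar.

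The albumin window held 8 sites, and Foxa1, Foxa2 and Hnf4a were found there while Foxa3 was not. A total of 7 of the 12 lists had a peak in it. Over the genome 4.26% of 14650 windows of 180 kb held peaks of at least 7 lists. The iHep Foxa1 list had 3 peaks in the window, a number reached by 1.13% of such windows, and the 48-hour Foxa1 list also had 3, reached by 3.45%. The iHep Foxa2 list had 5, reached by 1.76%, and the 48-hour Foxa2 list 1, reached by 29.5%. For iHep Hnf4a the Foxa1 line had 2 peaks, reached by 1.38% of windows, the Foxa2 line 2, reached by 2.53%, and the Foxa3 line 3, reached by 1.54%. The iHep Foxa3 list had none, whereas 27.2% of windows held at least 1 of its peaks. Its nearest peak lay 63.5 kb before the window, at chr5:90795329-90796480, and ranked 316 of 12661.

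The site that all iHep Hnf4a lists shared in the albumin window was chr5:90876440-90877030, which starts 16.4 kb into it. Hnf4a scored above 96.9% of its list there in the Foxa2 line (score 41.3, rank 77 of 2485), above 89.7% in the Foxa3 line (score 15.2, rank 258 of 2506) and above 75.3% in the Foxa1 line (score 14.7, rank 385 of 1580). The score is the authors' own value per peak. The sources used here do not give its formula, so it is used only to rank peaks within their list. The iHep Foxa2 peak at this site was weaker in its list, above 37.3% of it with a score of 16.8. Foxa2 and Hnf4a of that line overlapped by 418 bp, the whole Foxa2 peak, and their centres were 14 bp apart. It was the only site of the window where Foxa and Hnf4a of the same line and stage overlapped, and 7.63% of 180 kb windows held such an overlap in any iHep line. The Hnf4a peaks of the other 2 lines also overlapped the Foxa2 peak, but their own Foxa proteins had none at the site. The nearest own Foxa peak was centred 14.5 kb away for the Foxa1 line and 80.6 kb away for the Foxa3 line.

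Other Hnf4a peaks of the albumin window were found in single lines. In the Foxa3 line a weak Hnf4a peak at chr5:90877097-90877284 followed the shared site after a gap of 66 bp, with a score of 5.30 that ranked 2492 of 2506. A further Foxa3 line Hnf4a peak at chr5:90878769-90879081, score 7.62, overlapped an iHep Foxa2 peak of score 8.17 by 100 bp. The Foxa1 line had an Hnf4a peak at chr5:90868278-90868603, above 74.1% of its list with a score of 14.4. It overlapped an iHep Foxa2 peak by 305 bp with centres 51 bp apart, although that Foxa2 peak scored above only 4.79% of its list. The Foxa2 line had an Hnf4a peak of its own at chr5:90917273-90917563, above 21.9% of its list. Hnf4a and Foxa peaks thus met at 3 of the 8 sites when lines were mixed and at 1 within a line.

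Foxa peaks without Hnf4a stood at both ends of the albumin window and at a site between. The site chr5:91032271-91032783 held all 4 Foxa1 and Foxa2 lists. Foxa1 scored above 83.0% of its list there at 48 hours (score 37.2) and above 59.5% in iHep cells (score 25.4). Foxa2 scored above 15.4% at 48 hours (10.8) and above 4.79% in iHep cells (9.53), so in both stages it stood lower in its list than Foxa1. At chr5:90861933-90862557 the order was the other way in iHep cells. Foxa2 scored 64.4 there, above 92.6% of its list, while iHep Foxa1 scored 7.61 and ranked 3418 of 3435. The 48-hour Foxa1 peak of that site scored 17.6, above 47.5% of its list. The centres of these 3 peaks lay within 5 bp of each other. The site chr5:90896304-90896716 held Foxa1 alone, above 14.7% of the list at 48 hours (11.7) and above 64.3% in iHep cells (27.9).

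The fibrinogen window held 10 sites and was reached by 8 of the 12 lists. Over the genome 1.02% of 21984 windows of 120 kb held peaks of at least 8 lists. The iHep Foxa1 list had 3 peaks, a number that 0.509% of such windows reach, and the 48-hour Foxa1 list 2, which 5.83% reach. The iHep Foxa2 list had 4, reached by 1.78%, and the 48-hour Foxa2 list 1, reached by 22%. The iHep Foxa3 list had 6, reached by 2.04%. Hnf4a of the iHep Foxa1 line had 1, reached by 6.14%, that of the Foxa2 line 2, reached by 1.44%, and that of the Foxa3 line 2, reached by 2.36%.

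Of all 24 sites the one with the most lists was chr3:82854475-82855092, 84.5 kb into the fibrinogen window. It held 7 peaks of 6 lists, with Foxa1 and Foxa2 at both stages and Hnf4a of the iHep Foxa2 and Foxa3 lines. Foxa2 scored 117 there in iHep cells, above 98.7% of its list (rank 138 of 10330), and 19.9 at 48 hours, above 63.8%. Foxa1 scored 47.0 at 48 hours, above 89.0%, and 50.6 in iHep cells, above 85.7%. The centres of these 4 Foxa peaks lay within 45 bp. Hnf4a of the Foxa2 line scored 13.6, above 55.5% of its list, and its 272 bp lay wholly inside the Foxa2 peak with centres 37 bp apart. In the Foxa3 line Hnf4a formed 2 short peaks of 190 and 156 bp at this site, above 13.0% and 25.5% of their list. Hnf4a of the Foxa1 line had no peak here.

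The other joint site of the fibrinogen window was chr3:82824273-82824807, 54.3 kb into it. Foxa1 in iHep cells scored 110 there, above 97.1% of its list (rank 99 of 3435), and at 48 hours 39.7, above 84.7%. The iHep Foxa2 peak scored 55.6, above 89.8%. Hnf4a was present in the Foxa1 line (10.5, above 40.3%) and in the Foxa2 line (10, above 26.3%). Each Hnf4a peak lay wholly inside the iHep Foxa peak of its line, with centres 60.5 bp apart in the Foxa1 line and 3.5 bp apart in the Foxa2 line. Both Foxa proteins thus stood high in their lists and Hnf4a below the middle of its lists. At least 1 overlap of Foxa and Hnf4a within an iHep line occurred in 5.24% of 120 kb windows. This window held 2 sites of that kind, and the share of windows with at least 2 was not analysed. The remaining Foxa1 and Foxa2 site, chr3:82863264-82863858, held iHep Foxa2 (24.5, above 60.9%) and iHep Foxa1 (16.2, above 30.7%), and a single Foxa2 peak lay at chr3:82856055-82856412.

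In the fibrinogen window 0 of 6 iHep Foxa3 peaks overlapped Foxa1 or Foxa2. This is the rule over the whole iHep Foxa3 list, of which 2.01% overlapped iHep Foxa2 and 0.513% iHep Foxa1. The 6 peaks formed a run from 82847481 to 82854160 on chromosome 3, over 6.68 kb of which they covered 2287 bp. They scored between 7.12 and 15.3, above 3.93% to 52.8% of the list, with the highest in a peak of 1044 bp at chr3:82852242-82853285. The run ended 314 bp before the site that Foxa1 and Foxa2 shared. The 2 Hnf4a peaks of the Foxa3 line lay in that site and not in the run, with own-line gaps of 328 and 705 bp to the last Foxa3 peak.

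The apolipoprotein window held 6 sites, all of them with iHep peaks alone. For each 48-hour list taken alone, most windows of this length hold no peak. A total of 6 lists had a peak, which 3.35% of 26383 windows of 100 kb reach or exceed. Foxa1 had 1 peak, and 10.9% of such windows held at least that many. Foxa2 also had 1, reached by 25%. Foxa3 had 4, a number reached by 3.73%. The Hnf4a list of the Foxa1 line had 1 peak, reached by 5.19%, that of the Foxa2 line 2, reached by 1.09%, and that of the Foxa3 line 2, reached by 1.94%. The counts of Foxa1 and Foxa2 here are thus near what many windows hold.

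In this window Foxa and Hnf4a overlapped at 1 site in the Foxa1 line, at another in the Foxa3 line and at none in the Foxa2 line. At chr9:46023625-46024139 Foxa1 (29.3, above 66.2% of its list), Foxa2 (21.3, above 53.0%) and Hnf4a of the Foxa1 line (8.30, above 16.7%) came together, and the Foxa1 and Hnf4a peaks of that line shared 212 bp. Hnf4a of the Foxa2 and Foxa3 lines was not found there. At chr9:46036343-46039391 Foxa3 and Hnf4a of the Foxa3 line overlapped by 163 bp, the whole Hnf4a peak, with centres 22.5 bp apart. The Foxa3 peak of this pair, chr9:46036344-46036659, scored 12.6, above 38% of its list (rank 7845 of 12661). Hnf4a of the Foxa2 line lay at the same place and stood higher in its list, above 83.9% (22.2), than Hnf4a of the Foxa3 line, above 29.2% (8.61). No Foxa2 peak was there, and the nearest was centred 12.8 kb away. The window held 2 such joint sites, and 4.49% of 100 kb windows held at least 1.

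The widest peak of the 51 was a Foxa3 peak of 2674 bp at this site, chr9:46036718-46039391, with a score of 45.5 that ranked 185 of 12661. This wide peak did not overlap Hnf4a of the Foxa3 line and shared 130 bp with Hnf4a of the Foxa2 line. Together with a Foxa3 peak on each side the wide peak made a run of 4.02 kb, of which 3793 bp were covered. The Hnf4a peaks lay where the run begins. A lone Foxa3 peak followed at chr9:46081273-46081452 (20.4, above 73.2%). Hnf4a alone was found near the start of the window, in the Foxa3 line at chr9:46015011-46015286 (10.9, above 59.1%) and in the Foxa2 line at chr9:46015357-46015704 (8.13, above 9.70%). These neighbouring peaks did not overlap and were 70 bp apart.

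**Figure D3:**
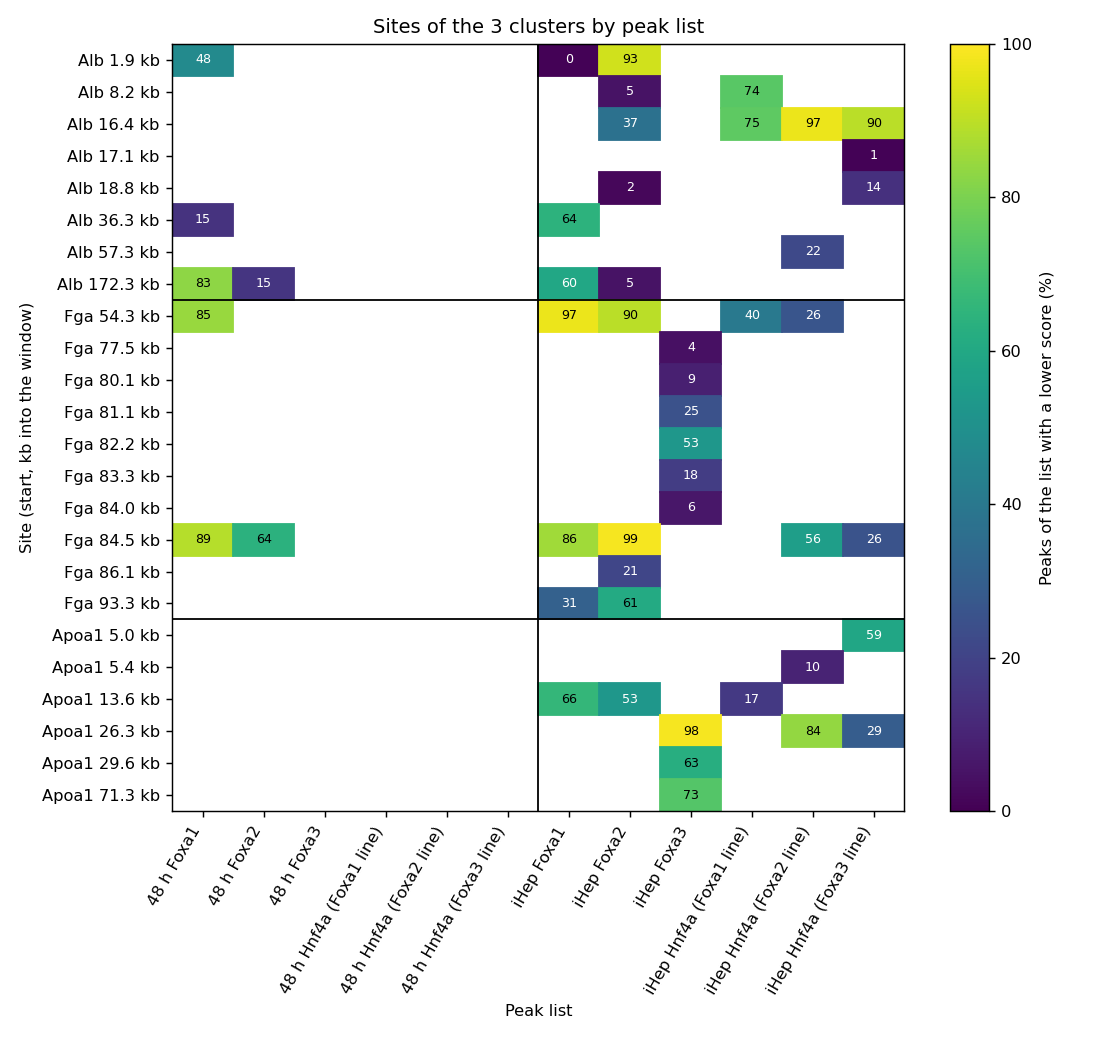
The 24 sites (rows, named by gene cluster and start in kb into the window) against the 12 lists (columns). Colour and number give the share of the list, in percent rounded to a whole number, with a lower score than the peak, or than the higher of 2 peaks of that list at the site. At the apolipoprotein site at 26.3 kb the Foxa3 value is that of the 2674 bp peak, which does not overlap Hnf4a of the Foxa3 line. No row has a filled cell of Foxa3 together with one of Foxa1 or Foxa2, an overlap that is rare over the whole Foxa3 list too (2.01% for iHep Foxa2).

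Across the 3 windows Foxa and Hnf4a of the same line and stage overlapped at 5 sites in 6 pairs of peaks, all in iHep cells. The Hnf4a peak lay wholly inside the Foxa peak in 4 of the 6 pairs, and the centres were 3.5 to 89.5 bp apart. At the median, iHep Hnf4a peaks are also narrower than the Foxa peaks of their line. The widths are 308.5 against 412 bp (Foxa1 line), 361 against 461 bp (Foxa2 line) and 205 against 248 bp (Foxa3 line). How often overlapping pairs of the whole lists nest in this way was not analysed. By line, 2 of 4 Hnf4a peaks of the Foxa1 line overlapped Foxa1, against 15.6% of all its Hnf4a peaks. In the Foxa2 line 3 of 6 overlapped Foxa2, against 20.6%, and in the Foxa3 line 1 of 7 overlapped Foxa3, against 37.7%. The line with the highest share over the genome thus had the lowest share in these windows. With so few peaks and 1 library per group the difference was not tested. When every list was reduced by score to the shortest list of its kind, 3435 Foxa peaks and 370 Hnf4a peaks, none of the 5 sites held both, and with the upper 50% of each list 1 did.

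**Figure D4:**
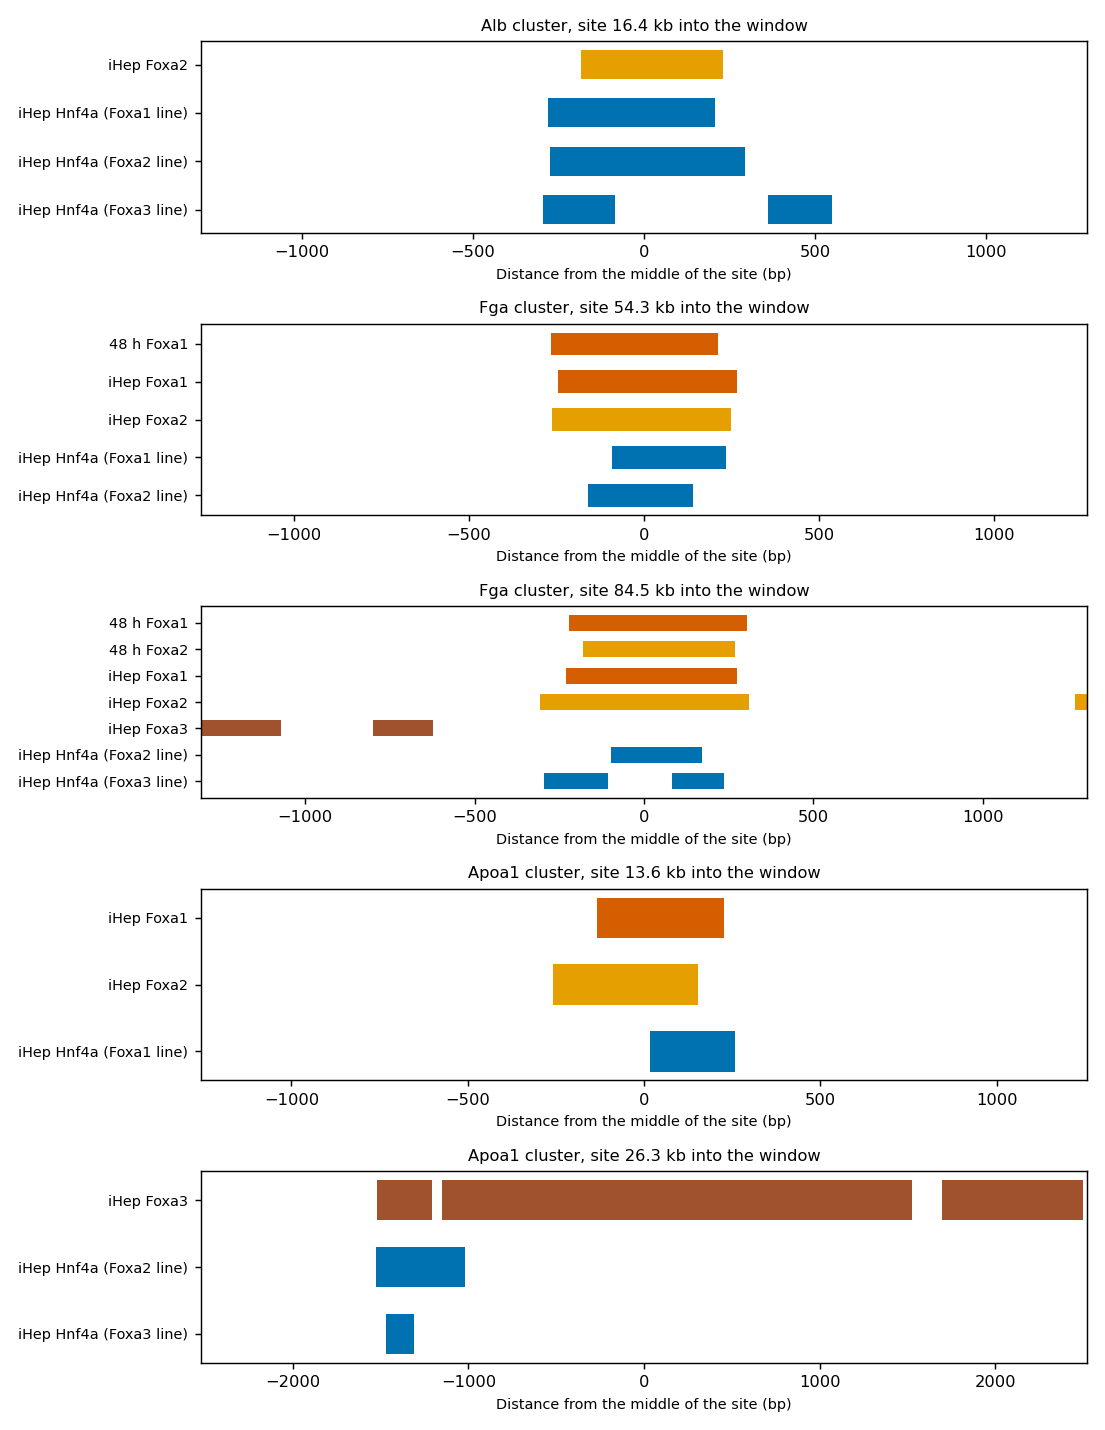
Peaks around the 5 sites where Foxa and Hnf4a of the same line overlap, drawn to scale, with distance from the middle of the site in bp on the x axis and 1 row per list that has a peak in view. Bars that reach the edge go on beyond it. At the 84.5 kb site of the fibrinogen window the Foxa3 peaks end before the site, 314 bp from it, and the 2 Hnf4a peaks of the Foxa3 line lie within it.

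Hnf4a was also set against the Foxa peaks of other lines. The 17 Hnf4a peaks lie at 11 sites, so a site with several Hnf4a peaks is counted more than once here. Of the 17 Hnf4a peaks 11 overlapped an iHep Foxa2 peak, against 17.1% of all 6571 iHep Hnf4a peaks. An own-line Foxa peak was met by 6 of 17, against 25.9%, and an iHep Foxa peak of any line by 13 of 17, against 36.8%. In the Foxa1 line 4 of 4 lay at an iHep Foxa2 peak, against 23.2% of all Hnf4a peaks of that line. In the Foxa3 line 4 of 7 did so, against 9.90%. These cells received no Foxa2 virus. Whether they contain Foxa2 was not measured in these files. The iHep Foxa2 list holds 10330 peaks, against 3435 for Foxa1 and 12661 for Foxa3, and the part of list length in these counts was not tested.

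Hnf4a peaks of different lines coincided in part. Of the 4 Hnf4a peaks of the Foxa1 line 2 overlapped one of the Foxa2 line, against 61.9% of that list, and of the 7 of the Foxa3 line 3 did, against 26.3%. In iHep cells 6 of 7 Foxa1 peaks overlapped Foxa2, near the 85.3% of the whole list, and 6 of 10 Foxa2 peaks overlapped Foxa1, against 28.3%. At 48 hours 2 of 2 Foxa2 peaks overlapped Foxa1, against 45.3%, and 2 of 5 Foxa1 peaks overlapped Foxa2, against 45.8%. At the 7 sites with at least 2 Foxa1 or Foxa2 peaks the centres lay within 5 to 99 bp. No Foxa3 peak overlapped a Foxa1 or Foxa2 peak in these windows, 0 of 10 for iHep Foxa2, where the share over the list is 2.01%.

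All 7 early Foxa peaks of these windows coincided with an iHep peak of the same protein. The 5 Foxa1 peaks of 48 hours overlapped an iHep Foxa1 peak, against 30.8% of the list, and both Foxa2 peaks overlapped an iHep Foxa2 peak, against 31.5%. They lay at 5 sites, 3 in the albumin and 2 in the fibrinogen window. In the other direction the shares lay near those of the lists. A 48-hour Foxa1 peak was met by 5 of 7 iHep Foxa1 peaks, against 60.8%, and by 4 of 10 iHep Foxa2 peaks, against 34.6%. A 48-hour Foxa2 peak was met by 2 of 10 iHep Foxa2 peaks, against 20.8%. The remaining 19 sites had iHep peaks alone. Of the 5 early sites 2 held Hnf4a in iHep cells, both in the fibrinogen window, and the 3 in the albumin window did not. Of the 5 early Foxa1 peaks 1 overlapped iHep Hnf4a of the Foxa1 line, against 3.01% of the list. For Hnf4a of the Foxa2 line it was 2, against 4.1%, and for the Foxa3 line 1, against 1.61%. Of the 2 early Foxa2 peaks 1 overlapped iHep Hnf4a of the Foxa2 line, against 2.67% of the list. For the Foxa3 line it was also 1, against 1.27%, and for the Foxa1 line 0, against 1.82%. Over the whole lists an early Foxa peak without iHep Hnf4a is thus the usual state. In these windows the shares were higher except for that last one, and with 5 and 2 peaks the difference was not tested.

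The cluster peaks were not uniformly strong in their lists. Of the 27 iHep Foxa peaks 14 scored above the median of their list and 4 were among its upper 10%. Of the 17 iHep Hnf4a peaks 7 were above the median and 1 was among the upper 10%. Of the 7 Foxa peaks of 48 hours 4 were above the median and none among the upper 10%. By window, iHep Hnf4a scored above 74.1% of its list at the median in the albumin window, above 26.3% in the fibrinogen window and above 29.2% in the apolipoprotein window. For iHep Foxa the same medians were 21.1% in the albumin, 30.7% in the fibrinogen and 64.4% in the apolipoprotein window. Peaks of different lists enter these medians, so they describe the windows and do not compare strengths of binding.

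The limits of the windows decided a few peaks. The first peak of the albumin window began 1.93 kb inside it, and the next peaks after its end were Hnf4a peaks of the Foxa2 line, 1.08 kb outside with a score of 10.5, and of the Foxa1 line, 1.13 kb outside with a score of 10.7. After the fibrinogen window the nearest peaks were 48-hour Hnf4a peaks of the Foxa2 and Foxa3 lines, 38 kb outside. With windows 50 kb longer on both sides the albumin window held 11 iHep Hnf4a peaks in place of 7. The nearest peak to the apolipoprotein window was an iHep Foxa2 peak 43.1 kb before it.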

How the data were processed

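The authors deposited 1 peak list per ChIP-seq library, with chromosome, start, end, name and a score for each peak. The deposited score has a lowest value of 5.03 and no source used here states its formula. Build mm9 and the tools bedtools 2.16.2, MACS2 2.1.0 and BWA 0.6.2 are listed, per the submitters' processing notes, with no role stated for any. Of 21 samples 13 have a list, and the 8 inputs were not used here. Groups follow the stage, line and antibody in the titles. The del2 sample, whose stage label and title differ, was only counted.

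Starts were printed with the first base as 1. Overlap means at least 1 bp. The genome was cut into adjoining windows of equal length from base 1 of each chromosome to the last peak of any list, 2639 Mb in all. Windows were not chosen for genes or for mappable sequence, and the same length underlies the genome densities. Shares among windows with genes were not analysed, so the shares given do not compare the clusters with other gene windows. No peak overlapped another of its own list. With 1 library per group nothing was tested. The overlap step was checked on simulated peaks. Genes named are the 10 of the clusters, and peaks given in full are those of sites in 2 or more lists, the best of each list in each window and the joint sites. The peaks of single lists that start 17.1 and 57.3 kb into the albumin window, 86.1 kb into the fibrinogen window, and 5.4 and 71.3 kb into the apolipoprotein window fall outside this rule and were chosen after their values were seen. The gene clusters, sequence words and lists were chosen with earlier results of these data known. The gene table is on GRCm38, so peaks were not assigned to genes, and other liver genes were not analysed here. Computations used Python 3.11.15, NumPy 2.4.6, SciPy 1.17.1 and matplotlib 3.10.9.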

Additional observations from a re-analysis of the deposited data

How the results depend on the processing

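No paired analysis was possible because each group is 1 library and no test was made. Of 141 alternative values 113 stayed within 1.5 times the value reported, or within its 95% Wilson interval for a share. Among the 113 are 42 shares of genome windows, which describe the background and not the clusters. Counts of 0 that a stricter list cannot lower are also among them. So are 3 shares of peaks in the upper 50% of their list, with intervals taken over 7, 27 and 17 peaks and not over libraries. The lower ends of these intervals were 25%, 34% and 21.6%, too wide for staying inside them to show much. Ranked by width, the shares went from 57.1% to 71.4% (48-hour Foxa), 51.9% to 44.4% (iHep Foxa) and 41.2% to 47.1% (iHep Hnf4a). Stricter lists removed most of what moved. With the upper 50% of each list by score the sites numbered 5 in the albumin and 4 in the fibrinogen window, the joint sites 0, 1 and 0 in the albumin, fibrinogen and apolipoprotein windows, and the albumin sites of both stages 1. Foxa peaks then numbered 1 at 48 hours and 3 in iHep cells in the albumin window and 6 in iHep cells in the fibrinogen window, and iHep Hnf4a peaks 4, 1 and 2 in the 3 windows. With lists cut to the shortest of their kind the sites numbered 4, 3 and 3, the joint sites 0 in each window and the albumin sites of both stages 1. Foxa peaks then numbered 1 at 48 hours in the albumin window and 4, 5 and 3 in iHep cells, and iHep Hnf4a peaks 2, 0 and 0. With windows 50 kb longer on both sides the albumin window held 11 iHep Hnf4a peaks and the fibrinogen window 2 Hnf4a peaks of 48 hours. Peaks merged up to 500 bp apart, centres within 200 bp or 1 kb, an overlap of 50% of the shorter peak, centres inside the window, ranks by width and shifted genome windows moved no value past those limits. No library could be left out, since each group has 1. Fewer peaks enter the stricter lists by construction. The files hold no read counts, so depth limits what an absent peak can show.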
